A study of Mus musculus with 36 samples.

Results

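Expression was followed for 9 genes of secreted proteins that act in or on the extracellular matrix and that are linked with metastasis: Spp1, Tnc, Thbs1, Postn, Sparc, Lox, Plau, Lcn2 and Chil1. They were chosen by name, with earlier results of these data known, and matched by symbol and Ensembl identifier. Because of that choice, counts among them beside the share of all genes are a description only. All 9 were among the 21650 genes measured. The libraries came from an intraductal model of mammary cancer in lactating female mice, inoculated in the third mammary gland after their pups were weaned. The 4T1 tumors grew from luciferase-expressing 4T1 cells, a BALB/c-derived mammary tumor line, in hosts of the BALB/c strain. The Py230 tumors grew in C57BL/6 hosts from a line of MMTV-PyMT C57BL/6 mice, whose oncogene is driven in mammary epithelium by a viral promoter. Control glands of each strain received Matrigel, the basement membrane gel that also carried the cells, without tumor cells. RNA was sequenced at weeks 1, 3 and 6 post-inoculation (p.i.), which gave 36 libraries in 12 groups of 3. Each line was studied in 1 strain, so that line and strain cannot be told apart from the tumors alone, and the difference between the Matrigel glands of the strains is given with the tumor differences of each of the 9 genes. More Py230 than 4T1 cells were inoculated, so that the number of cells given cannot be told apart from the line either. The tumor libraries of a group are described as independent tumors. For the Matrigel glands the sources used here do not say whether each came from its own animal, so that p-values measure the spread between these libraries, which may be technical in part. In bulk tissue, fewer cells of a type and less RNA per cell cannot be told apart.

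Matricellular proteins are secreted into the matrix but act mainly on cells, through integrins and other receptors, rather than as building material. Osteopontin (Spp1), tenascin-C (Tnc), thrombospondin-1 (Thbs1), periostin (Postn) and SPARC (Sparc) belong to them. Lysyl oxidase (Lox) cross-links collagen and elastin, and urokinase (Plau) turns plasminogen into plasmin, a protease that breaks down fibrin and matrix. Lipocalin-2 (Lcn2) binds the siderophores with which bacteria collect iron and is made by epithelium and neutrophils. Chitinase-3-like protein 1 (Chil1) binds chitin but does not cut it, and was found early on as a product of mammary epithelium at involution. Osteopontin is also a milk protein, so that a gland after weaning can itself be a source of its transcript. Which cells made each transcript was not measured here.

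Group means of Chil1, Spp1 and Tnc covered the widest ranges among the 9 genes, and the 250 bases before their start are therefore shown. The sequences are from a set of RefSeq promoters (GRCm38.p6, the build also called mm10), and the set used here held 6 of the 9 genes. Each is the strand of the gene, 5′ to 3′, ending at the base before the RefSeq start. The set also held another start for Spp1 (104436192, a window without matches) and for Tnc (64046936), which are not shown. Capitals mark matches on either strand to the TATA box (TATAAA), the AP-1 motif (TGANTCA), the CAAT box (CCAAT), the GC box (GGGCGG), the RUNX core (TGTGGT) or the NF-kappaB consensus. None of the matches shown overlaps another.
Spp1, chr5:104434861-104435110, plus strand: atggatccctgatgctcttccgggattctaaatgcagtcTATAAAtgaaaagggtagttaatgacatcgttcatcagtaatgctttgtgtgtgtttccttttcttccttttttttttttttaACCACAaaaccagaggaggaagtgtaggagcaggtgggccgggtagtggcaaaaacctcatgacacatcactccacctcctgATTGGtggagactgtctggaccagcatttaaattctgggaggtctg
Tnc, chr4:64047016-64047265, minus strand: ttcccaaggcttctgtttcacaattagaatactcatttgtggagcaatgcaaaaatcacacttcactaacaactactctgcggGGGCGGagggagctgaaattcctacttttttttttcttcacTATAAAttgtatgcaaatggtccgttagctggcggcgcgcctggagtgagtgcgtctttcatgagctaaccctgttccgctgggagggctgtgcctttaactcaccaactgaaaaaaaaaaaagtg
Chil1, chr1:134181906-134182155, plus strand: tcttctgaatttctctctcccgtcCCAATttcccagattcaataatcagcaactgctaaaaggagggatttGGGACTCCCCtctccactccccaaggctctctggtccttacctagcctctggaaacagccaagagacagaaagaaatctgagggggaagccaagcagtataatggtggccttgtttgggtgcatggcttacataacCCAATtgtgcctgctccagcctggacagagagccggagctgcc

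The Spp1 window held a TATA box at 211 to 206 bases before the start, a RUNX core on the other strand at 128 to 123 and a CAAT box on the other strand at 46 to 42. The Tnc window held a GC box at 167 to 162 and a TATA box at 126 to 121. The Chil1 window held CAAT boxes at 226 to 222 and at 43 to 39 and an NF-kappaB consensus at 179 to 170. Of 32851 RefSeq windows of the same length, 12.4% held the TATA box, 6.75% the AP-1 motif, 33.8% the CAAT box, 32.7% the GC box, 14% the RUNX core and 3.9% the NF-kappaB consensus. These matches describe letters, and binding was not measured.

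In GENCODE vM21 on mm10, Spp1 (ENSMUSG00000029304) lies on chromosome 5 from 104435118 to 104441050, Sparc (ENSMUSG00000018593) on chromosome 11 from 55394500 to 55423183, and Lcn2 (ENSMUSG00000026822) on chromosome 2 from 32384633 to 32388252. Postn (ENSMUSG00000027750) lies on chromosome 3 from 54361109 to 54391037, Chil1 (ENSMUSG00000064246) on chromosome 1 from 134182176 to 134190181, and Plau (ENSMUSG00000021822) on chromosome 14 from 20836660 to 20843385. Thbs1 (ENSMUSG00000040152) lies on chromosome 2 from 118111876 to 118127133, Lox (ENSMUSG00000024529) on chromosome 18 from 52516067 to 52529867, and Tnc (ENSMUSG00000028364) on chromosome 4 from 63959785 to 64047015. All 9 are protein-coding. Spp1 shares bases with Gm42793 on the same strand, and Thbs1, Lox and Tnc each share bases with 1 gene on the other strand. The sources used here do not say whether counting used strand, so that reads in the shared stretches cannot be assigned with certainty.

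Levels of different genes were compared per length, from the authors' mean normalized count over all libraries divided by the length of a gene's merged exons. On this average Spp1 had the highest level, 15584 per kilobase. Sparc followed with 7137 and Lcn2 with 5851 per kilobase, and Postn had 1812. Chil1 (1171), Plau (1079), Thbs1 (576), Lox (505) and Tnc (358) were lower on the same scale. These are pooled values without a replicate error, and their order is that of the average and not of each group. With the averages spread over the libraries by the scale given in the next paragraph, Spp1 was highest per kilobase in 7 of 12 groups (all BALB/c groups and the Py230 tumors of week 1), Sparc in the 3 groups of C57BL/6 Matrigel glands and Lcn2 in the Py230 tumors of weeks 3 and 6. In Py230 tumors of week 3 the approximate levels per kilobase were 10533 for Lcn2, 5134 for Sparc and 2926 for Spp1.

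All values below are scores: in each library the deposited value of a gene is its distance from the mean of the 21650 genes in units of their SD. A difference of 1 score corresponded to about 3.01 log2 units of normalized count, a common line fitted to 4075 genes, so that the folds given beside score differences are approximate. The range between the highest and the lowest of 12 group means was 1.69 for Chil1, larger than in 98% of all genes, 1.49 for Spp1 (96.9%) and 1.16 for Tnc (93.7%). It was 0.85 for Thbs1, 0.80 for Plau and 0.76 for Lcn2. Lox (0.41), Postn (0.38) and Sparc (0.32) were near the median of all genes, 0.33. Neighbours in the order of the 12 group means mostly lay within the larger of their SDs: at most 2 of 11 neighbour gaps exceeded it for any gene.

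**Figure D1:**
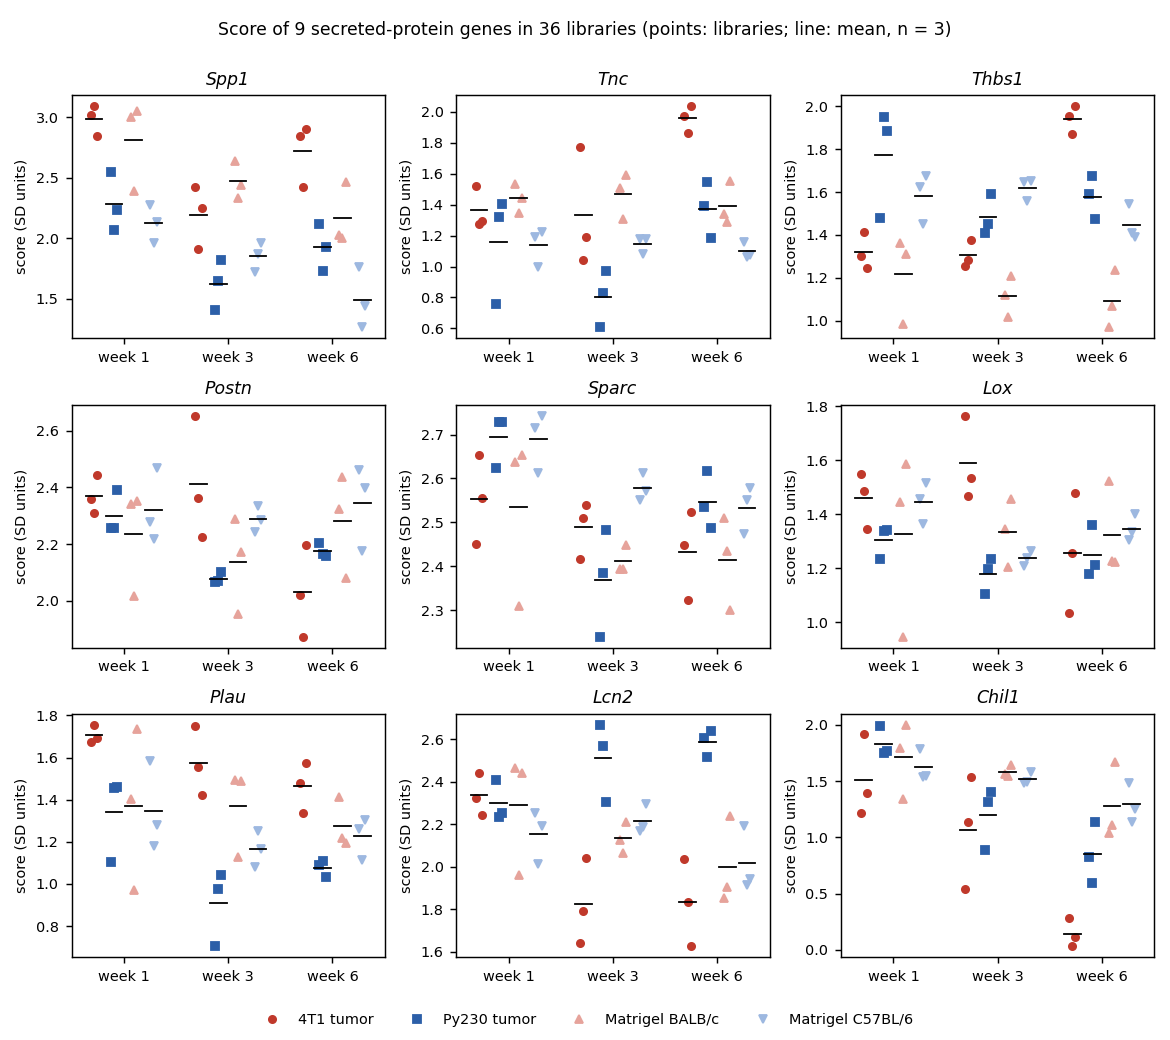
Score of each of the 9 genes (vertical axis, SD units of the library) in every library by week p.i., with 4T1 tumors, Py230 tumors and the Matrigel glands of both strains in separate symbols and the mean of 3 libraries as a line. The 3 4T1 tumors of week 6 were the lowest of 36 libraries for Chil1, and the 3 Py230 tumors of week 6 had Lcn2 scores from 2.52 to 2.64.

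Between 4T1 and Py230 tumors, 2 of the 9 genes differed at week 1, 6 at week 3 and 6 at week 6 (limma, Benjamini-Hochberg adjusted p under 0.05 over all genes). Of all genes, 19.4%, 30.3% and 40.8% differed at these weeks. At week 1 Spp1 was higher and Thbs1 lower in 4T1 tumors. At week 3 Spp1, Tnc, Postn, Plau and Lox were higher and Lcn2 was lower in 4T1 tumors. At week 6 Spp1, Tnc, Thbs1 and Plau were higher and Lcn2 and Chil1 lower, while Sparc differed at no week. The median difference of the 9 genes was 0.07, 0.34 and 0.01 at weeks 1, 3 and 6, against 0.01, -0.01 and 0.04 for all genes.

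The Matrigel glands of the strains differed for the same 2 genes at each week, Spp1 (higher in BALB/c) and Thbs1 (lower in BALB/c), where 3.06%, 3.77% and 3.84% of all genes differed. Beyond this strain difference, the tumors differed for none of the 9 genes at week 1 (0.305% of all genes, and none of the 9 at an unadjusted p under 0.05). At week 3 they differed for Postn and Lcn2 (9.15% of all genes, and 5 of the 9 at an unadjusted p under 0.05). At week 6 they differed for Thbs1 and Lcn2 (25.5%, and 3 of the 9 at an unadjusted p under 0.05). Counting these 3 tests and the 3 tests of a change in the tumor difference between weeks together, 3 of the 9 genes (Lcn2, Thbs1 and Postn) passed at least 1, against 50.4% of all genes. In fits restricted to the libraries compared, the 6 tumor differences of week 3 missed the threshold, with adjusted p from 0.0530 to 0.191, and the 6 of week 6 stayed past it. The 4T1 tumor 1 of week 3 and the Py230 tumor 1 of week 3 stood apart from their groups in adipocyte markers, and leaving out either left 2 of the 6 differences of week 3, those of Plau and Lcn2.

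**Figure D2:**
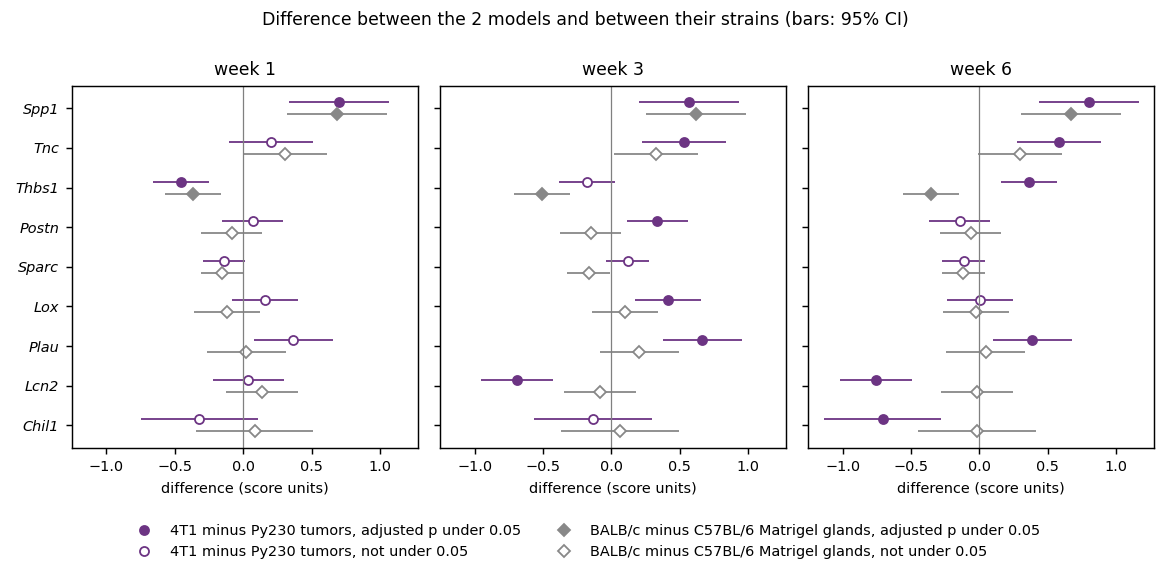
Difference in score (horizontal axis) of 4T1 minus Py230 tumors and of BALB/c minus C57BL/6 Matrigel glands for each gene at each week p.i., with 95% confidence intervals of the limma fit and filled symbols where the adjusted p was under 0.05. For Spp1 both differences lay between 0.57 and 0.80 at every week, whereas Lcn2 differed between the tumors at weeks 3 and 6 by -0.69 and -0.76 and between the Matrigel glands by -0.08 and -0.02.

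Osteopontin (Spp1) had its higher scores in 4T1 tumors at each week, and the Matrigel glands of the strains differed by a like amount. In 4T1 tumors its scores were 3.02, 3.09 and 2.85 at week 1, 2.42, 1.91 and 2.25 at week 3, and 2.84, 2.43 and 2.90 at week 6. In Py230 tumors they were 2.55, 2.07 and 2.23, then 1.41, 1.65 and 1.82, then 2.12, 1.73 and 1.93. The tumor groups did not overlap at any week. The difference was 0.70 at week 1 (SE 0.18, about 4.3-fold, adjusted p = 0.00818), 0.57 at week 3 (about 3.28-fold, adjusted p = 0.0168) and 0.80 at week 6 (about 5.29-fold, adjusted p = 0.000681).

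Between Matrigel glands, which hold no tumor cells, Spp1 was higher in BALB/c by 0.69, 0.62 and 0.67 at weeks 1, 3 and 6 (adjusted p = 0.0264, 0.0477 and 0.0263), and these groups did not overlap either. The tumor difference beyond that of the strains was 0.01 (95% CI -0.51 to 0.53), -0.05 (-0.57 to 0.47) and 0.13 (-0.39 to 0.64). The strain calls were close to the threshold. At week 1 the call was lost without BALB/c gland 1 or 3 or C57BL/6 gland 2 or 3 (0.57 to 0.70), at week 3 without any 1 of the 6 glands (0.54 to 0.69), and at week 6 without BALB/c gland 3 or C57BL/6 gland 2 or 3 (0.52 to 0.65). The week 3 tumor difference was 0.46 (adjusted p = 0.0824) without 4T1 tumor 1 and 0.46 (adjusted p = 0.111) without Py230 tumor 1.

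Spp1 fell in 4T1 tumors from week 1 to week 3 by 0.79 (adjusted p = 0.0373) and rose again by 0.53 to week 6 (adjusted p = 0.0145). In Py230 tumors it fell by 0.66 from week 1 to week 3 (adjusted p = 0.0115), and the change of 0.30 to week 6 did not pass (adjusted p = 0.346). At week 6 Spp1 was above the Matrigel gland of its own strain in both tumors, by 0.56 in 4T1 (adjusted p = 0.00876) and by 0.43 in Py230 (adjusted p = 0.0468). The Matrigel glands had means of 2.81, 2.47 and 2.16 in BALB/c and of 2.13, 1.85 and 1.49 in C57BL/6 at weeks 1, 3 and 6. The fall in 4T1 tumors kept its call only without 4T1 tumor 1 of week 3, and the value without any other single library lay between -0.86 and -0.65. The later rise lost its call without 4T1 tumor 2 of week 3 (0.39) or tumor 1 (0.47) or 3 (0.44) of week 6, the Py230 fall without tumor 1 of week 1 (-0.52) or of week 3 (-0.55), and the week 6 Py230 difference without tumor 1 (0.34) or 3 (0.43) or C57BL/6 gland 2 (0.32) or 3 (0.41).

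Tenascin-C (Tnc), an adhesion-modulating protein that is made at wound edges and in tumor stroma, had its highest group mean in 4T1 tumors of week 6. Its scores there were 1.97, 1.86 and 2.04, against 1.52, 1.27 and 1.30 at week 1 and 1.77, 1.04 and 1.19 at week 3. In Py230 tumors they were 0.76, 1.32 and 1.41 at week 1, 0.61, 0.83 and 0.97 at week 3, and 1.39, 1.55 and 1.18 at week 6. At weeks 3 and 6 every 4T1 tumor was above every Py230 tumor, whereas the week 1 groups overlapped.

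The Tnc difference was 0.20 at week 1 (adjusted p = 0.352), 0.53 at week 3 (about 3.03-fold, adjusted p = 0.00844) and 0.58 at week 6 (about 3.38-fold, adjusted p = 0.00254). In Matrigel glands Tnc was higher in BALB/c by 0.30, 0.32 and 0.30 without overlap, with adjusted p from 0.323 to 0.426. Tnc rose from week 3 to week 6 in 4T1 tumors by 0.62 (adjusted p = 0.00107) and in Py230 tumors by 0.57 (adjusted p = 0.0218). At week 6 it was above the BALB/c Matrigel glands by 0.56 in 4T1 tumors (adjusted p = 0.00221), and the Py230 tumors were 0.28 above theirs without passing (adjusted p = 0.131). The week 3 difference was 0.31 (adjusted p = 0.0938) without 4T1 tumor 1 and 0.43 (adjusted p = 0.0700) without Py230 tumor 1. The Py230 rise lost its call without tumor 1 (0.47) or 2 (0.59) of week 3 or tumor 1 (0.56) or 2 (0.49) of week 6.

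Thrombospondin-1 (Thbs1), which binds CD36 and CD47, restrains angiogenesis and activates latent TGF-beta, was lower in 4T1 tumors at week 1 and higher at week 6, and alone among the 9 genes passed between the tumors in both directions. Its scores in 4T1 tumors were 1.30, 1.41 and 1.25 at week 1, 1.26, 1.28 and 1.37 at week 3, and 1.95, 1.87 and 2.00 at week 6. In Py230 tumors they were 1.48, 1.95 and 1.89, then 1.41, 1.45 and 1.59, then 1.59, 1.67 and 1.47. The groups did not overlap at any week, with the 4T1 tumors below at weeks 1 and 3 and above at week 6.

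The Thbs1 difference was -0.45 at week 1 (adjusted p = 0.00294), -0.18 at week 3 (adjusted p = 0.182) and 0.36 at week 6 (about 2.14-fold higher in 4T1, adjusted p = 0.00446). Its change from week 1 to week 6 was 0.82 (SE 0.14, adjusted p = 8.62e-05), in a comparison in which 27.4% of all genes changed. From week 3 to week 6 it was 0.54 (adjusted p = 0.00547), where 26.7% of all genes changed. The Matrigel glands of BALB/c were below those of C57BL/6 at all weeks, with differences of -0.36, -0.50 and -0.36 (adjusted p = 0.0397, 0.00188 and 0.0388). Beyond the strains the tumor difference was 0.72 at week 6 (95% CI 0.43 to 1.01, adjusted p = 0.000372), and this call and those of both changes held without any single library. The strain call of week 1 was lost without BALB/c gland 2 (-0.25) or C57BL/6 gland 1 (-0.34) or 3 (-0.32), and that of week 6 was kept only without BALB/c gland 3, with values of -0.39 to -0.30 without any other gland.

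In 4T1 tumors Thbs1 rose between weeks 3 and 6 by 0.64 (about 3.78-fold, adjusted p = 8.17e-06), and at week 6 the tumors were 0.85 above the BALB/c Matrigel glands (about 5.9-fold, adjusted p = 8.80e-08). The BALB/c glands of week 6 had scores of 0.97, 1.07 and 1.24. In Py230 tumors Thbs1 changed from week 1 to week 3 by -0.29 (adjusted p = 0.0405), with overlapping groups, and at no week was it called against C57BL/6 Matrigel glands (differences of 0.19, -0.14 and 0.13). That Py230 change lost its call without tumor 2 (-0.20) or 3 (-0.23) of week 1 or tumor 1 (-0.25) or 2 (-0.27) of week 3.

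The 3 genes of the collagen matrix, Postn, Sparc and Lox, varied least. Periostin (Postn), which binds collagen and integrins and supports collagen assembly, had group means between 2.03 and 2.41. In 4T1 tumors its scores were 2.36, 2.31 and 2.44 at week 1, 2.65, 2.36 and 2.22 at week 3, and 2.02, 1.87 and 2.20 at week 6. In Py230 tumors they were 2.26, 2.26 and 2.39, then 2.07, 2.07 and 2.10, then 2.20, 2.17 and 2.16. The groups were apart at week 3 alone.

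The Postn difference was 0.07 at week 1 (adjusted p = 0.683), 0.34 at week 3 (about 2.01-fold, adjusted p = 0.0207) and -0.15 at week 6 (adjusted p = 0.308). The Matrigel glands, BALB/c minus C57BL/6, differed in Postn by -0.08, -0.15 and -0.06. Beyond the strains the tumor difference was 0.48 at week 3 (adjusted p = 0.0463), and between weeks 3 and 6 it changed by -0.48 (adjusted p = 0.0214). Postn fell in 4T1 tumors from week 3 to week 6 by 0.38 (adjusted p = 0.00446), to 0.25 below the BALB/c Matrigel glands (adjusted p = 0.0488, overlapping groups). The week 3 difference missed the threshold without 4T1 tumor 1 (0.22, adjusted p = 0.150) or Py230 tumor 1 (0.33, adjusted p = 0.0680) or 2 (0.33, adjusted p = 0.0537), and its change to week 6 without 4T1 tumor 1 of week 3 (-0.36) or tumor 2 of week 6 (-0.40). The call beyond the strains was kept only without 4T1 tumor 3, Py230 tumor 3 or BALB/c gland 1, with values of 0.36 to 0.51 without any other library, and the week 6 call against BALB/c glands was lost without tumor 1 (-0.25) or 2 (-0.17) or gland 1 (-0.23) or 2 (-0.17).

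SPARC (Sparc), a collagen-binding protein of basement membranes and bone, had scores between 2.24 and 2.74 in all 36 libraries and did not pass between the tumors at any week. Its differences of 4T1 minus Py230 tumors were -0.14 (95% CI -0.30 to 0.02), 0.12 (-0.04 to 0.28) and -0.12 (-0.27 to 0.04), all with overlapping groups. Between Matrigel glands, BALB/c minus C57BL/6, Sparc differed by -0.16, -0.17 and -0.12 (adjusted p from 0.312 to 0.547). In Py230 tumors Sparc fell from week 1 (2.62, 2.73 and 2.73) to week 3 (2.24, 2.38 and 2.48) by 0.32 (adjusted p = 0.00422). That fall was 0.26 without Py230 tumor 1 of week 3 (adjusted p = 0.0695). After cyclic loess scaling the week 6 difference was -0.19 (adjusted p = 0.0154).

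Lysyl oxidase (Lox) was higher in 4T1 tumors at week 3. Its scores there were 1.76, 1.47 and 1.53, against 1.10, 1.20 and 1.23 in Py230 tumors, a difference of 0.41 (about 2.36-fold, adjusted p = 0.00928) between groups that did not overlap. At week 1 the difference was 0.16 (adjusted p = 0.366) and at week 6 0.01 (adjusted p = 0.972). The Matrigel glands of BALB/c minus C57BL/6 differed in Lox by -0.12, 0.10 and -0.02, and beyond the strains the week 3 difference was 0.31 without passing (adjusted p = 0.238). In 4T1 tumors Lox fell from week 3 to week 6, with scores of 1.03, 1.26 and 1.48, by 0.33 (adjusted p = 0.0196). The week 3 difference was 0.32 (adjusted p = 0.0584) without 4T1 tumor 1 and 0.37 (adjusted p = 0.0528) without Py230 tumor 1, and the fall lost its call without 4T1 tumor 1 of week 3 (-0.24) or tumor 1 of week 6 (-0.22). The week 6 difference, near 0, was -0.03 after cyclic loess scaling.

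Urokinase (Plau) was higher in 4T1 tumors without overlap at all weeks. Its scores in 4T1 tumors were 1.67, 1.75 and 1.69 at week 1, 1.75, 1.55 and 1.42 at week 3, and 1.48, 1.34 and 1.57 at week 6. In Py230 tumors they were 1.10, 1.45 and 1.46, then 0.71, 0.98 and 1.04, then 1.09, 1.11 and 1.03. The difference was 0.37 at week 1 (adjusted p = 0.0654), 0.67 at week 3 (about 4.02-fold, adjusted p = 0.000824) and 0.39 at week 6 (about 2.24-fold, adjusted p = 0.0287).

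The Matrigel glands differed in Plau by 0.02, 0.20 and 0.05, and neither tumor passed against its own Matrigel glands at any week. The differences from those glands were 0.34, 0.20 and 0.19 in 4T1 and -0.01, -0.26 and -0.15 in Py230 tumors. In Py230 tumors Plau fell from week 1 to week 3 by 0.43 (adjusted p = 0.0314). The week 3 tumor difference kept its call without any single library. The week 6 call was kept only without 4T1 tumor 2, with values of 0.33 to 0.40 without any other tumor, and the Py230 fall was lost without tumor 2 (-0.37) or 3 (-0.37) of week 1 or tumor 1 (-0.33) or 2 (-0.47) of week 3.

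Lipocalin-2 (Lcn2) was lower in 4T1 than in Py230 tumors at weeks 3 and 6, in groups that overlapped at week 1. In Py230 tumors its scores were 2.41, 2.23 and 2.25 at week 1, 2.67, 2.57 and 2.30 at week 3, and 2.61, 2.52 and 2.64 at week 6. In 4T1 tumors they were 2.32, 2.44 and 2.25, then 1.64, 1.79 and 2.04, then 2.03, 1.84 and 1.63. From week 3 every Py230 tumor was above every 4T1 tumor.

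The Lcn2 difference of 4T1 minus Py230 tumors was 0.04 at week 1 (95% CI -0.22 to 0.30), -0.69 at week 3 (about 4.21-fold lower in 4T1, adjusted p = 0.000219) and -0.76 at week 6 (about 4.84-fold lower, adjusted p = 2.51e-05). It changed by -0.73 from week 1 to week 3 (adjusted p = 0.00924, 15.3% of all genes changed) and by -0.79 from week 1 to week 6 (adjusted p = 0.00156). Between Matrigel glands, BALB/c minus C57BL/6, Lcn2 differed by 0.14, -0.08 and -0.02, and beyond this the tumor difference was -0.61 at week 3 (adjusted p = 0.0342) and -0.74 at week 6 (adjusted p = 0.00302). At week 6 Py230 tumors were 0.57 above C57BL/6 Matrigel glands (about 3.3-fold, adjusted p = 0.000628), while 4T1 tumors were 0.17 below BALB/c glands without passing (adjusted p = 0.261). In 4T1 tumors the change from week 1 to week 3 was -0.51 (adjusted p = 0.0574). Apart from the week 3 value beyond the strains, kept only without 4T1 tumor 3, Py230 tumor 3 or C57BL/6 gland 3 and -0.64 to -0.52 without any other library, the Lcn2 calls held without any single library. In limma fits of only the libraries compared, the week 3 tumor difference missed the threshold (adjusted p = 0.0638). So did the week 3 value beyond the strains (adjusted p = 0.102) and the change from week 1 to week 3 (adjusted p = 0.0980), while the other Lcn2 calls stayed.

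CHI3L1 (Chil1) had the widest range of the 9 genes, from a mean of 1.83 in Py230 tumors of week 1 to 0.14 in 4T1 tumors of week 6. In 4T1 tumors its scores were 1.22, 1.92 and 1.40 at week 1, 0.54, 1.13 and 1.53 at week 3, and 0.28, 0.03 and 0.12 at week 6. In Py230 tumors they were 1.98, 1.74 and 1.76, then 0.89, 1.32 and 1.40, then 0.82, 0.60 and 1.13. The tumor groups overlapped at weeks 1 and 3 and were apart at week 6.

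At week 6 the Chil1 difference of 4T1 minus Py230 tumors was -0.71 (about 4.38-fold lower in 4T1, adjusted p = 0.00775). The differences of weeks 1 and 3 were -0.32 and -0.13 (adjusted p = 0.288 and 0.677). The Matrigel glands, BALB/c minus C57BL/6, differed in Chil1 by 0.08, 0.06 and -0.02, and beyond the strains the week 6 difference was -0.69 without passing (95% CI -1.30 to -0.08, adjusted p = 0.0891). In 4T1 tumors it fell from week 3 to week 6 by 0.92 (about 6.88-fold, adjusted p = 0.000599) and ended 1.13 below BALB/c Matrigel glands (about 10.6-fold, adjusted p = 5.39e-05). In Py230 tumors it fell from week 1 to week 3 by 0.63 (adjusted p = 0.0344) and was 0.44 below C57BL/6 Matrigel glands at week 6 without passing (adjusted p = 0.0845). The week 6 tumor difference was -0.57 (adjusted p = 0.0571) without Py230 tumor 3, and the Py230 fall was kept only without tumor 3 of week 3, with values of -0.69 to -0.47 without any other tumor.

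Against the Matrigel glands of their strain, 4T1 tumors thus differed for none of the 9 genes at weeks 1 and 3 by the adjusted p of limma, where 16.6% and 3.25% of all genes did, and for 5 at week 6 (60.1%). Py230 tumors differed for none at weeks 1 and 3 (0.00924% and 19.7%) and for 2 at week 6 (47.6%). At an unadjusted p under 0.05 the counts were 1 and 4 in 4T1 tumors and 0 and 3 in Py230 tumors at weeks 1 and 3. Over time, 1 gene changed in 4T1 tumors between weeks 1 and 3 (0.628% of all genes) and 6 between weeks 3 and 6 (53%), whereas in Py230 tumors 5 changed between weeks 1 and 3 (20%), all downward, and 1 between weeks 3 and 6 (6.03%). Leaving out Py230 tumor 1 of week 3 took the count of 5 to 0.

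**Figure D3:**
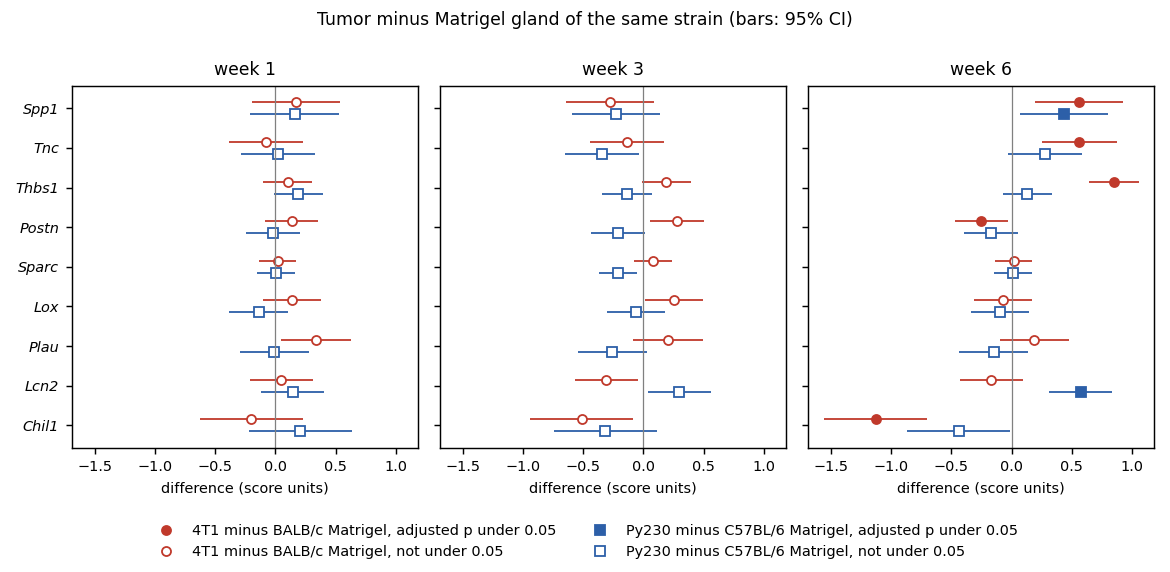
Difference in score (horizontal axis) of each tumor minus the Matrigel glands of its own strain for each gene at each week p.i., with 95% confidence intervals of the limma fit and filled symbols where the adjusted p was under 0.05. No gene is filled at weeks 1 and 3; at week 6 Thbs1 stood at 0.85 and Chil1 at -1.13 in 4T1 tumors, and Lcn2 at 0.57 in Py230 tumors.

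Lists of relatives were made for Spp1, Tnc, Postn, Sparc, Thbs1, Lox and Chil1, and none for Lcn2 or Plau. The CCN matricellular proteins were listed with them. Of these 35 relatives, 29 were measured. Between 4T1 and Py230 tumors 3 were higher and 3 lower at week 1, 6 higher at week 3, and 5 higher and 3 lower at week 6. These are 20.7%, 20.7% and 27.6% of the relatives, against 19.4%, 30.3% and 40.8% of all genes. None differed between the Matrigel glands at any week. Of the SIBLING family of Spp1, both measured members were higher in 4T1 tumors at week 6, bone sialoprotein (Ibsp) by 2.01 (adjusted p = 1.32e-14). Its scores were -0.18 ± 0.15 (SD, n = 3) in 4T1 tumors and -2.19 ± 0.03 in Py230 tumors, and its authors' mean of 42.5 normalized counts was low. Of 3 tenascins beside Tnc, Tnn was higher in 4T1 tumors at week 6 by 1.24 (adjusted p = 2.68e-07), also at a low mean count of 18.7.

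Of 7 members of the SPARC family beside Sparc, 3 were lower in 4T1 tumors at week 1, 2 higher at week 3 and 2 lower at week 6. The largest differences were those of Spock2 at week 1 (-0.61), Sparcl1 at week 3 (0.43) and Smoc2 at week 6 (-0.70). Of 4 other thrombospondins, Thbs3 was higher at week 3 (0.39) and Thbs4 lower at week 6 (-0.68). Of 4 lysyl oxidases beside Lox, 3 were higher in 4T1 tumors at week 3 and 2 at week 6. Loxl4 led both, by 0.63 (adjusted p = 0.00105) and 1.02 (adjusted p = 8.65e-07). Tgfbi, the paralog of Postn, was higher at week 1 (0.41), none of 5 measured CCN proteins passed at any week, and of 3 measured chitinase relatives 2 were higher at week 1, led by Chil3 (1.60, adjusted p = 0.0124).

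Of 25 receptors and partners, 22 were measured, and 6 were higher and 1 lower at week 1, 6 higher and 2 lower at week 3, and 8 higher and 3 lower at week 6 in 4T1 tumors. These are 31.8%, 36.4% and 50% of the receptors and partners, against 19.4%, 30.3% and 40.8% of all genes. None differed between the Matrigel glands. Cd47, a receptor of thrombospondin-1, was higher in 4T1 tumors at each week, by 0.18, 0.28 and 0.42 (adjusted p = 0.0318, 0.000665 and 1.07e-06). Slc22a17, a receptor of lipocalin-2, was lower at each week, with differences of -0.29, -0.30 and -0.85 (adjusted p = 0.00349, 0.000948 and 5.40e-11), with scores at week 6 of -0.36 ± 0.06 (SD, n = 3) in 4T1 tumors and 0.49 ± 0.07 in Py230 tumors. Of 7 measured genes of plasminogen activation, 2, 4 and 4 were higher in 4T1 tumors at weeks 1, 3 and 6. Plaur, the receptor that holds urokinase at the cell surface, was higher by 0.51 at week 1 (adjusted p = 0.0371) and by 0.93 at week 6 (adjusted p = 7.86e-05), and the plasminogen activator inhibitor Serpinb2 by 1.15 at week 3 (adjusted p = 0.0127).

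Of 10 integrins and CD44, 1 was higher at week 1 (Cd44, 0.32), 1 lower at week 3 (Itgb6, -0.27), and 3 were higher and 2 lower at week 6, where Itga8 had the largest difference (-0.74). Of the 2 receptors listed for CHI3L1, both were higher in 4T1 tumors at week 1 and 1 at week 3. Il13ra2 differed by 0.92 (adjusted p = 0.0311) and 1.15 (adjusted p = 0.00462), with an authors' mean of 23.9 normalized counts and an SD of 1.04 among the 4T1 tumors of week 3.

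Cell type markers moved along with these comparisons, in which 19.4%, 30.3% and 40.8% of all genes differed between the tumors of weeks 1, 3 and 6. At week 6 each of 10 neutrophil markers passed as higher in 4T1 tumors, with list means per library of -0.06 to 0.20 against -0.98 to -0.75. Of 10 macrophage markers 9 were higher in 4T1 tumors at week 3, with list means of 1.37 to 1.96 against 1.04 to 1.14, and none passed at week 6. Of 10 fibroblast markers 4 were higher in 4T1 tumors at week 3, and list means were 1.78 to 1.93 against 1.34 to 1.70.

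All 8 adipocyte markers were lower at week 6 in both tumors than in their Matrigel glands (60.1% of all genes differed in 4T1 and 47.6% in Py230 tumors). The adipocyte list means were -0.01 to 0.26 in 4T1 tumors, 0.17 to 1.19 in Py230 tumors and 1.81 to 2.36 in the glands of week 6. Of 7 milk protein genes 5 were lower in the 4T1 tumors at week 6 (list means of -0.88 to -0.84 against -0.07 to 0.15), while 6 were higher at week 1. The list means of week 1 were 1.47 to 1.71 in 4T1 and 0.86 to 1.07 in Py230 tumors. The Matrigel glands of week 1 differed in the same direction, with 1.19 to 1.74 in BALB/c and 0.69 to 1.00 in C57BL/6. Of 7 myoepithelial markers 6 were lower in 4T1 tumors at week 6 (list means of -0.27 to 0.39 against 1.00 to 1.27). The 8 epithelial markers, keratins and junction genes of the labelled tissue, had list means of 1.11 to 1.72 in all libraries, and skeletal muscle markers spread from -0.81 to 2.48. At week 3, tumor 1 of each model stood apart with adipocyte list means of 0.88 (4T1) and 0.59 (Py230), against 1.86 to 2.28 in the other tumors of that week. The part of these cell types in the results of the 9 genes was not tested.

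**Figure D4:**
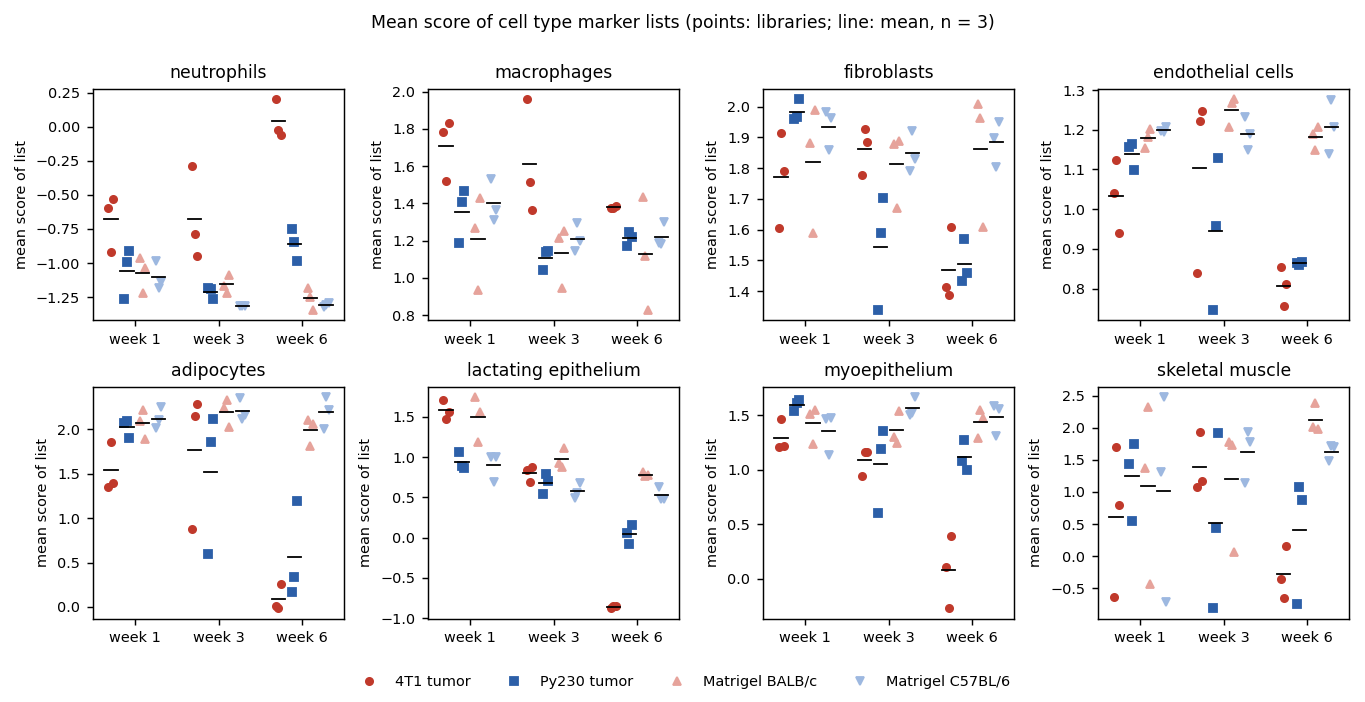
Mean score of the genes of each marker list (vertical axis) in every library by week p.i., with the mean of 3 libraries as a line. The 4T1 tumors of week 6 had the highest neutrophil means (-0.06 to 0.20) and the lowest milk protein means (-0.88 to -0.84).

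Across the 36 libraries, which share groups and weeks, several members followed a marker list. Plau and the macrophage list had r = 0.80, and r = 0.76 after the group means were removed. Sparc and the fibroblast list had r = 0.65 and, within groups, 0.87. Tnc and the neutrophil list had r = 0.73 and, within groups, 0.65. Lox and the macrophage list had 0.71 and 0.68. Chil1 and the myoepithelial list had 0.84 and, within groups, 0.50, and Chil1 and the adipocyte list 0.82 and 0.58. These pairs are a selection from all pairs of a member and a list, and others were of like size. Plau and the fibroblast list had 0.43 and, within groups, 0.68, and Postn and the macrophage list 0.60 and 0.70. Chil1 had 0.80 and 0.35 with the milk protein list and -0.70 and -0.52 with the neutrophil list. Among the members, Plau and Lox had the highest r, 0.73, and within groups also 0.73.

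**Figure D5:**
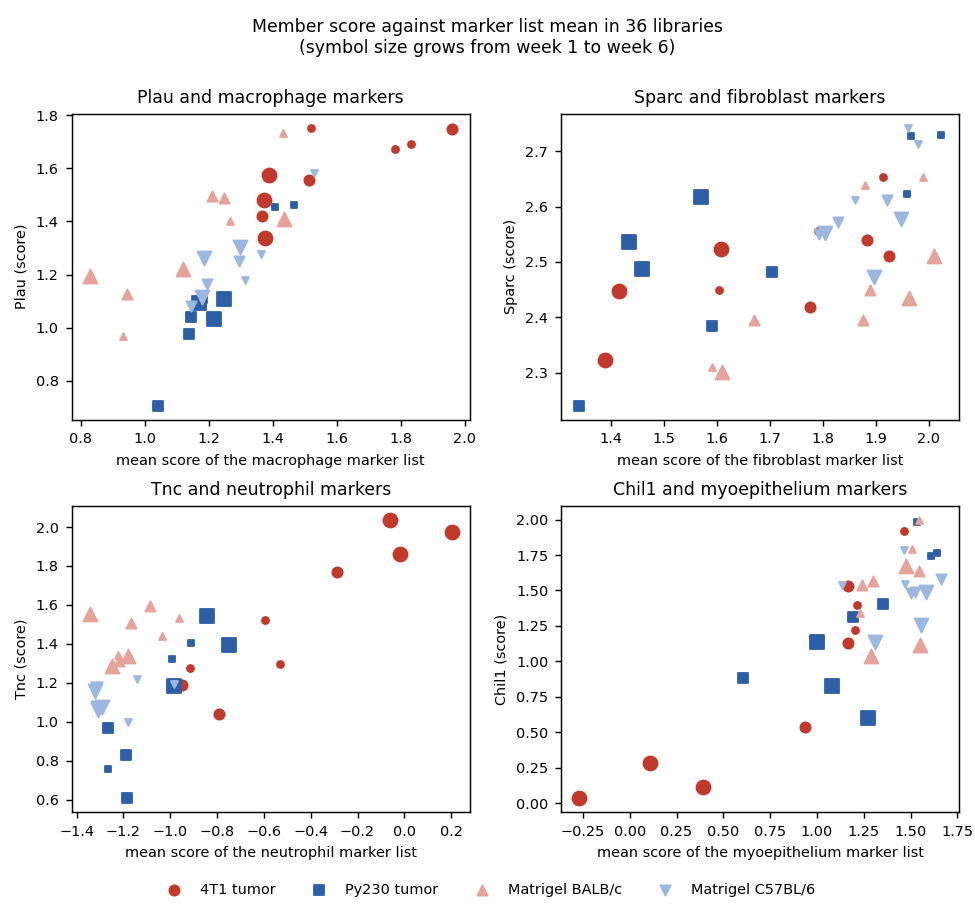
Score of Plau, Sparc, Tnc and Chil1 (vertical axes) against the mean score of a marker list (horizontal axes) in 36 libraries, with symbols for the 4 kinds of tissue and larger symbols at later weeks. Plau followed the macrophage list across tissues (r = 0.80), and the Chil1 plot (r = 0.84) has 3 libraries, the 4T1 tumors of week 6, in its lower left corner.

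The genes most like each member by Pearson's r over the 36 libraries were taken from 11924 genes whose mean normalized count reached 100. For Chil1 they were Clic6 (0.92), Cck (0.91) and Dkkl1 (0.91), for Lcn2 Mdfi (0.90), Sowahb (0.88) and Fhdc1 (0.88), and for Plau Lyz2 (0.89), Slc37a2 (0.89) and Il6ra (0.89). For Thbs1 they were B3gnt3 (0.83), Zzz3 (0.80) and Mgp (0.80), for Spp1 Slc43a2 (0.83), Depdc7 (0.78) and Slc2a9 (0.78), and for Tnc Tcp11l1 (0.83), Tnfrsf23 (0.81) and Efemp2 (0.80). For Postn they were Vstm4 (0.83), Marcks (0.82) and Kif1a (0.81), for Sparc Ppic (0.80), Adamts2 (0.80) and Serpinh1 (0.79), and for Lox Adap2 (0.79), Hexa (0.76) and Dse (0.76). These values describe the libraries measured, which share their groups.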

How the data were processed

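The authors prepared stranded libraries from total RNA of tumors, which had been snap-frozen, and of glands, and sequenced them as read pairs. The authors used STAR (genome mm10) for mapping, summariseOverlaps of GenomicAlignments for counting per gene, and normalized the counts with DESeq2. Versions of these tools, the annotation and the counting of strands are not given in the sources used here. The values deposited by the authors are a score per gene and library, not counts: in each of the 36 libraries the 21650 genes had a mean of 0 and an SD of 1. Depth therefore cannot be read from them, and neither a counting interval nor a count model was used. The authors' deposited mean normalized count per gene was used as a pooled level and to relate scores to log2 units. The authors' deposited fold changes, p-values and hallmark memberships were not used, and 0 columns were left unmapped. A per-library SD also carries changes in other genes, so that a score difference is relative to the rest of the library.

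Scores were fitted in R 4.3.3 with limma 3.58.1 as 12 group means over all 36 libraries (empirical Bayes with trend, robust), since the groups then share 1 estimate of the spread, and p-values were adjusted by Benjamini-Hochberg over all genes (threshold 0.05). With 3 libraries against 3 an exact permutation test cannot go below p = 0.1, so none was used. The script was tested on simulated data. The alternatives were a replicate block, fits of only the libraries compared, a filter on genes with a mean normalized count under 10, cyclic loess or robust-line scaling, and leaving out each library. All 9 members are named in each comparison. Of each list of relatives or receptors at most 1 called gene per week is named, that with the largest difference between the tumors, and marker lists are given by counts and means. Members and lists were chosen with earlier results of these data known.

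Whether same-numbered libraries pair was not settled. Of 54 pairs of 1 week and 1 number, 17 had a correlation of deviations from the group mean above 0.1, in a range of -0.543 to 0.789. Pairs of different numbers were not computed beside them. The replicate block had 1 effect per number over all weeks, so that it cannot decide on pairing within a week. The correlation between libraries of a group was at least 0.947 and between any 2 libraries at most 0.993, so that no library was a copy of another.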

Additional observations from a re-analysis of the deposited data

Results flagged for a closer look

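Of the 9 genes, 3 had a tumor difference that itself differed, either from that of the Matrigel glands or between weeks, by the test of that difference in limma (adjusted p under 0.05). Of all genes, 50.4% passed at least 1 of the same 6 tests, so that 3 of 9 is not above the share of all genes. For Lcn2 the difference of 4T1 minus Py230 tumors was -0.607 beyond that of the strains at week 3 and -0.740 at week 6, and it changed by -0.728 from week 1 to week 3 and by -0.794 from week 1 to week 6. For Thbs1 it was 0.721 beyond the strains at week 6, and changed by 0.543 from week 3 to week 6 and by 0.817 from week 1 to week 6. For Postn it was 0.484 beyond the strains at week 3 and changed by -0.481 from week 3 to week 6. The Postn value beyond the strains missed the threshold in the limma fit of only the libraries compared (adjusted p = 0.140) and after cyclic loess scaling (adjusted p = 0.0725). In such restricted fits, Lcn2 missed it beyond the strains at week 3 (adjusted p = 0.102) and for the change from week 1 to week 3 (adjusted p = 0.0980). The neutrophil, milk protein and myoepithelial lists differed between the tumors of week 6 as well, and their part in the Thbs1 and Lcn2 results was not tested.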

How the results depend on the processing

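Of 49 called differences of single genes, 49 stayed called in the same direction with a replicate block and with robust-line scaling. With a filter on low genes 48 stayed called, after cyclic loess scaling 48, and in fits restricted to the libraries compared 24. The restricted fits have few residual degrees of freedom and take the spread from their own libraries alone. Why calls were lost in them was not tested. Leaving out each library in turn, 24 of 49 kept their call every time. The number of the 9 genes called between Py230 tumors and Matrigel glands at week 3 was 1 rather than 0 with the replicate block, low filter, cyclic loess and robust line, and that in 4T1 tumors from week 1 to 3 was 2 rather than 1 with the block, cyclic loess and robust line. The block moved no other count. Cyclic loess gave 1 beyond the strains at week 3 and 4 for the change from week 3 to 6, and the low filter 1 between the strains at week 3.

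With the compared libraries alone the counts were 1 and 0 between tumors at weeks 1 and 3, 0 beyond the strains at week 3, 0 for the change from week 1 to 3, 4 for Py230 against Matrigel at week 6, 0 and 3 in 4T1 tumors over weeks 1 to 3 and 3 to 6, 0 and 0 in Py230 tumors over these intervals, and 0 and 0 between strains at weeks 1 and 6.

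Leaving out 1 library gave 2 to 6 genes between tumors at week 3 and 4 to 6 at week 6, 0 to 3 beyond the strains at week 3, 1 to 2, 1 to 3 and 2 to 3 for the changes from week 1 to 3, 3 to 6 and 1 to 6, and 0 to 1, 0 to 2 and 4 to 5 for 4T1 against Matrigel at weeks 1, 3 and 6. It gave 0 to 2 and 1 to 2 for Py230 against Matrigel at weeks 3 and 6, 0 to 2 and 4 to 6 in 4T1 tumors and 0 to 6 and 0 to 1 in Py230 tumors over the 2 intervals, and 0 to 1, 1 to 1 and 0 to 1 between strains.

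Among the differences between 4T1 and Py230 tumors that were not called, the sign changed in 6 cases. Uncalled differences of the other comparisons were not followed for sign. Lox at week 6 was -0.0341 after cyclic loess and ranged from -0.104 to 0.117 with 1 library left out (-0.0292 and -0.0120 without Py230 tumors 1 and 3, the lowest without 4T1 tumor 3). Lcn2 at week 1 ranged from -0.0141 (without 4T1 tumor 2) to 0.0933 and Chil1 at week 3 from -0.366 to 0.132 (without 4T1 tumor 1). The cause was not tested. Depth is unknown from scores, so that low genes such as Ibsp and Tnn carry an unknown counting error.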
